A study of Homo sapiens with 6 samples.

Results

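The 37 genes of the human mitochondrial genome were followed across 3 columns of estimated RNA counts from MDA-MB-231, a widely used human cell line of triple-negative breast cancer, a subtype defined by little or no oestrogen, progesterone and ERBB2 receptor. They are every row that the deposited table places on the mitochondrial chromosome, and they made up 37 of the 58174 gene IDs in the table. The rule uses position only, but it was chosen with earlier results of these data known. There were 13 protein genes (mRNA), 2 ribosomal RNA (rRNA) genes and 22 transfer RNA (tRNA) genes, each with 1 transcript. The labels describe 2 groups of cells with an ARID1A knockout, KO1 and KO2, and a control group, NC, with 2 samples in each of the 3 groups and no other treatment named. ARID1A belongs to BAF, a complex that moves nucleosomes along DNA. How the gene was disrupted, whether KO1 and KO2 are single clones, and what the control cells carry are not given in the sources used here. The table has 1 column per group, whether made from 1 library or both is not stated, so replicate error is unknown throughout, and each bracketed 95% interval (exact) covers counting error only, with fragments not independent molecules.

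Human mitochondrial DNA is a small circle transcribed from both strands into long RNAs that cover many genes. The tRNAs stand between most of the other genes, and cutting them out of the long RNA releases the mRNAs and rRNAs. The proteins are subunits of respiratory complex I (the MT-ND genes), complex III (MT-CYB), complex IV (MT-CO1, MT-CO2 and MT-CO3) and the ATP synthase, complex V (MT-ATP6 and MT-ATP8). The rRNAs and tRNAs serve the ribosomes that translate these mRNAs inside the organelle. All protein factors that copy, cut, stabilise and translate the RNA come from nuclear genes. In bulk RNA, more RNA per cell and more cells with such RNA cannot be told apart.

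Total counts were 25801499 in KO1, 26144758 in KO2 and 26798753 in NC. The targeted gene, ARID1A, was at 45.7 CPM (a count scaled to library size) in KO1, 83.9 CPM in KO2 and 77.3 CPM in NC. Its RNA in the column labelled KO2 was thus not below NC. RNA level alone does not check a knockout, and KO1 and KO2 stand for the columns with those labels throughout. Of markers of the line, VIM (mesenchymal filament) lay between 2925 and 4719 CPM and CD44 (hyaluronan receptor) between 664 and 764 CPM. The oestrogen receptor ESR1 had 0 counts in KO1, 14 in KO2 and 0 in NC, and the progesterone receptor PGR had 0 counts in all 3. ERBB2, another receptor that defines the subtype by its low level, was at 28.0 CPM in KO1, 52.4 CPM in KO2 and 75.7 CPM in NC. The adhesion gene CDH1 was at most 1.07 CPM in any column. EPCAM, another adhesion gene, was at 20.3 CPM in KO1, 15.4 CPM in KO2 and 6.46 CPM in NC. It was thus low but 3.13-fold higher in KO1 and 2.38-fold higher in KO2 than in NC.

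A run of 4 neighbouring tRNA genes on the minus strand, between MT-ND2 and MT-CO1, had the highest tRNA levels and the highest folds of any member in KO1. They are printed here from GENCODE release 29 (GRCh38), with the anticodon in capitals. They carry alanine, asparagine, cysteine and tyrosine. Each is written 5′ to 3′ in the sense of the tRNA.
MT-TA, MT:5587-5655, minus strand: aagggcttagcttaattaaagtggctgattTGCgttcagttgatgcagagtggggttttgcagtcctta
MT-TN, MT:5657-5729, minus strand: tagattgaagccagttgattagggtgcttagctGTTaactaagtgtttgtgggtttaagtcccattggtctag
MT-TC, MT:5761-5826, minus strand: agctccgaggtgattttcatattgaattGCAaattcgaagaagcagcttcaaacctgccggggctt
MT-TY, MT:5826-5891, minus strand: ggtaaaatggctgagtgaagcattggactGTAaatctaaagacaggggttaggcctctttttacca
MT-TC and MT-TY share 1 base, and 31 bases lie between MT-TN and MT-TC.

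Mitochondrial genes took a larger share of all counts in both knockout columns than in NC, and rRNA and tRNA differed more than mRNA. The share over all 37 genes was 20.5% in KO1 and 16.9% in KO2, against 12.8% in NC. mRNA accounted for 16.7% of counts in KO1, 14.5% in KO2 and 11.4% in NC. rRNA accounted for 3.43% in KO1 (3.42 to 3.43), 2.19% in KO2 (2.19 to 2.20) and 1.28% in NC (1.27 to 1.28). tRNA accounted for 0.319% in KO1 (0.316 to 0.321), 0.173% in KO2 (0.171 to 0.175) and 0.117% in NC (0.116 to 0.119). All 3 classes thus ran in the same order, KO1 above KO2 above NC, with no overlap of the counting intervals. Within the mitochondrial counts alone, which no scaling of nuclear genes can move, rRNA made up 16.8% in KO1, 13% in KO2 and 9.97% in NC. mRNA made up 81.7% in KO1, 86.0% in KO2 and 89.1% in NC. Most counts lay on genes of the plus strand as the table gives it. Whether the counting used strand is not given in the sources used here, which limits these strand totals. The minus strand, with MT-ND6 and 8 tRNA genes, held 2.41% of mitochondrial counts in KO1, 2.04% in KO2 and 2.06% in NC.

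**Figure D1:**
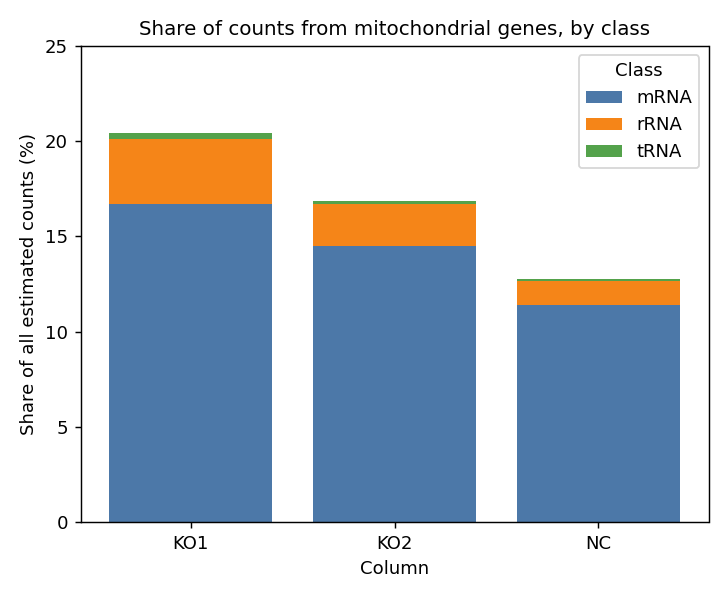
Share of all estimated counts (%) taken by mitochondrial mRNA, rRNA and tRNA genes, stacked, with 1 bar per column and no replicates. The bars reach 20.5% in KO1, 16.9% in KO2 and 12.8% in NC, and the rRNA part is widest in KO1.

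To compare single genes, counts were scaled with TMM (trimmed mean of M values) to CPM, and a gene passed the size rule when its log2 fold was at least 1 in size, its counting interval excluded equality and its mean reached 1 CPM. All 37 members reached that mean, the lowest count of any member in any column being 47. The rule has no p-value. KO1 against NC asks what the first knockout column shows. There 15 of 37 members passed as higher, or 40.5%, where 15.4% of the 14524 measured genes did so, and 0 passed as lower, where 17.4% of measured genes did. The members that passed were 2 of 2 rRNAs, 3 of 13 mRNAs and 10 of 22 tRNAs. The median log2 fold was 0.73 over the 37 members and 0.61 over the mRNAs, against -0.01 over all measured genes. Neighbouring members are cut from the same long RNA and are not independent. KO2 against NC asks the same of the second knockout column. There 0 of 37 members passed in either direction, where 11% of measured genes were higher and 9.98% lower, and the median log2 fold was 0.22 over the 37 members and 0.27 over the mRNAs. Both comparisons use the same NC column.

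The scaling matters for these folds. With deposited TPM in place of scaled counts the median of all genes in KO1 against NC lay at -0.33 and that of the 13 mRNAs at 0.24, and 6 members (16.2%) passed as higher, where 7.21% of genes did. With library totals those medians were -0.24 and 0.38, and 9 members (24.3%) passed, where 11.3% of genes did. In both settings the mRNAs lay above the median of all genes by about as much as with TMM.

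The only fit with any residual freedom put both knockout columns against NC as 1 group of 2. With the quasi-likelihood test of edgeR, two-sided and adjusted by Benjamini-Hochberg over 18289 genes with 1 residual degree of freedom, 0 of 37 members changed, with adjusted p between 0.759 and 0.999, and 0 members had an unadjusted p under 0.05. Among all genes tested 0.0547% rose and 0.093% fell. DESeq2 also called 0 members, and 0 had an unadjusted p under 0.05. This test takes KO1 and KO2 as replicates and assumes that the lone NC column varies like them. Few genes of the whole table were called, and neighbouring members are not independent. Finding no members among the called genes therefore says little about them. None of the differences below passed this test, and they are given as values.

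**Figure D2:**
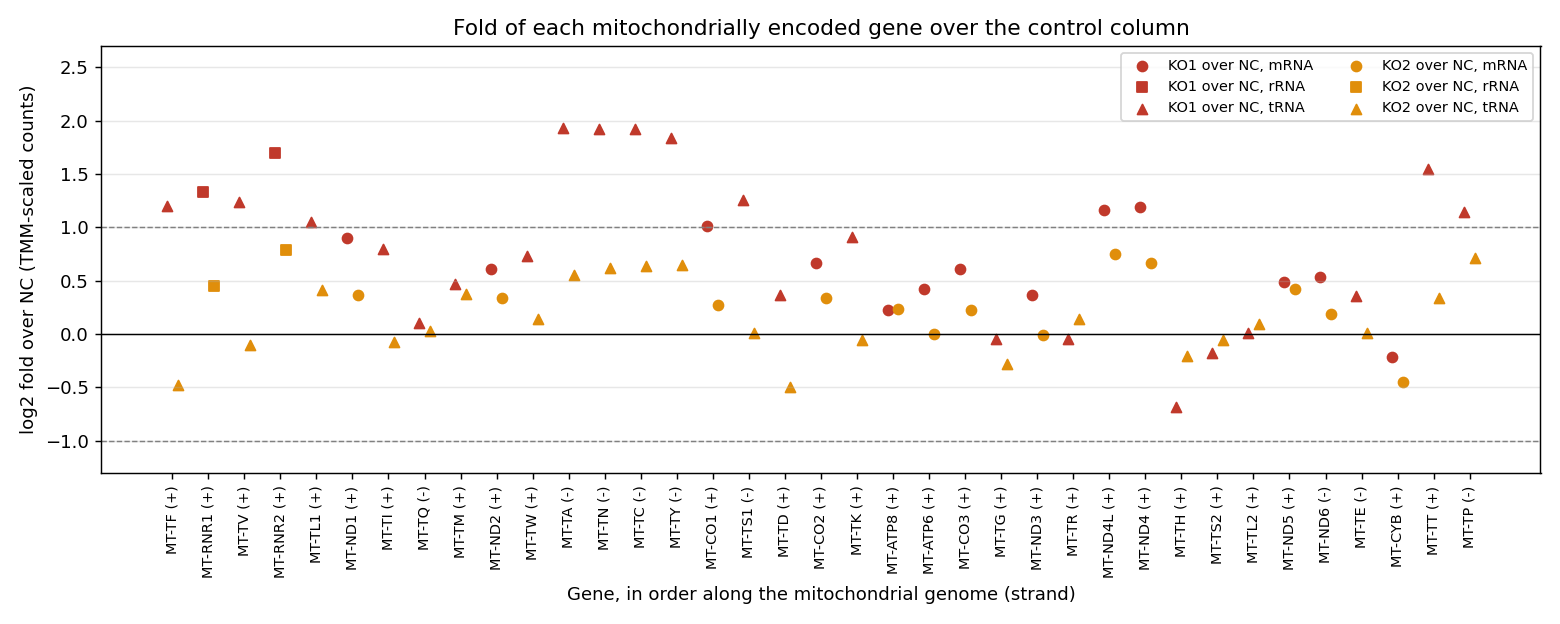
log2 fold over NC of TMM-scaled counts for the 37 genes in genome order, KO1 left of KO2 at each gene, with circles for mRNA, squares for rRNA and triangles for tRNA, and dashed lines at the size rule's fold of 2. In KO1 15 genes lie at or above the upper line, and in KO2 none reaches either line.

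In KO1 the rRNAs had the highest folds over NC outside the tRNAs. MT-RNR2, the RNA of the large mitochondrial ribosomal subunit (ENSG00000210082, plus strand, 1671 to 3229 of the hg38 mitochondrial sequence), was at 34547 CPM in KO1, 18352 CPM in KO2 and 10658 CPM in NC. It was 3.24-fold (3.23 to 3.25) higher in KO1 than in NC and 1.72-fold (1.71 to 1.73) higher in KO2 than in NC. MT-RNR1, the RNA of the small subunit (ENSG00000211459, 648 to 1601), was at 3887 CPM in KO1, 2111 CPM in KO2 and 1548 CPM in NC. Its folds over NC were 2.51 (2.48 to 2.54) in KO1 and 1.36 (1.35 to 1.38) in KO2. Both rRNAs passed the size rule in KO1 and neither did in KO2, and the order of the columns was the same for both. Both come from the same stretch of the precursor, yet per length (TPM) MT-RNR2 exceeded MT-RNR1 by 5.44-fold in KO1, 5.32-fold in KO2 and 4.21-fold in NC. The library kit is described as one for stranded total RNA. Whether and how rRNA was removed is not given in the sources used here, and its part in the rRNA differences was not tested.

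Among the subunits of complex IV, the cytochrome c oxidase that passes electrons to oxygen, MT-CO1 was the most abundant mRNA by count. MT-CO1 (ENSG00000198804, 5904 to 7445) was at 55497 CPM in KO1, 33236 CPM in KO2 and 27577 CPM in NC. It was 2.01-fold (2.01 to 2.02) higher in KO1 than in NC, just past the size rule, and 1.21-fold higher in KO2. With DESeq2 size factors it lay under the rule in KO1. MT-CO2 (ENSG00000198712) was at 23306 CPM in KO1, 18600 CPM in KO2 and 14686 CPM in NC. MT-CO3 (ENSG00000198938) was at 24160 CPM in KO1, 18461 CPM in KO2 and 15799 CPM in NC. Their folds in KO1 were 1.59 and 1.53, so the catalytic subunit MT-CO1 differed most among them.

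Complex I takes electrons from NADH, and 7 of its subunits are encoded here. The overlapping pair MT-ND4L and MT-ND4, which are translated from the same mRNA and share 7 bases, had the highest folds of any mRNA in both knockout columns. MT-ND4 (ENSG00000198886, 10760 to 12137) was at 29058 CPM in KO1, 20151 CPM in KO2 and 12716 CPM in NC. MT-ND4L (ENSG00000212907, 10470 to 10766) was at 5205 CPM in KO1, 3914 CPM in KO2 and 2322 CPM in NC. The folds of MT-ND4 were 2.29 (2.28 to 2.29) in KO1 and 1.58 (1.58 to 1.59) in KO2, and those of MT-ND4L were 2.24 (2.22 to 2.26) in KO1 and 1.69 (1.67 to 1.70) in KO2. The folds of the pair were thus alike, and their TPM ratio was 1.20 in KO1, 1.11 in KO2 and 1.18 in NC.

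The other complex I mRNAs were closer to NC. MT-ND1 (ENSG00000198888), the first mRNA after the rRNAs, was at 13285 CPM in KO1, 9185 CPM in KO2 and 7104 CPM in NC, a fold of 1.87 in KO1. MT-ND2 (ENSG00000198763) was at 11756 CPM in KO1, 9734 CPM in KO2 and 7694 CPM in NC. MT-ND5 was at 7779 CPM in KO1, 7462 CPM in KO2 and 5561 CPM in NC, so both knockout columns lay at about the same level. MT-ND3 was at 3179 CPM in KO1, 2448 CPM in KO2 and 2463 CPM in NC. In KO2 the interval of its fold, 0.983 to 1.004, included equality. MT-ND6, the only mRNA of the minus strand (ENSG00000198695, 14149 to 14673), was at 2339 CPM in KO1, 1843 CPM in KO2 and 1618 CPM in NC. Its folds of 1.45 in KO1 and 1.14 in KO2 lay within the range of the plus-strand mRNAs. As use of strand in the counting is not given, RNA of the plus strand may be among its counts.

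The ATP synthase pair lay close to NC. MT-ATP8 (ENSG00000228253, 8366 to 8572) was at 3218 CPM in KO1, 3241 CPM in KO2 and 2752 CPM in NC, the only mRNA that was no lower in KO2 than in KO1 on this scale. In deposited TPM 10 of 13 mRNAs were no lower in KO2 than in KO1, so this direction turns with the scaling. MT-ATP6 (ENSG00000198899, 8527 to 9207), the subunit that lines the proton path, was at 2959 CPM in KO1, 2216 CPM in KO2 and 2210 CPM in NC. The genes share 46 bases in different reading frames of the same mRNA, shown here from the plus strand of GRCh38 with the start codon of MT-ATP6 in capitals.
MT-ATP8 and MT-ATP6 overlap, MT:8527-8572: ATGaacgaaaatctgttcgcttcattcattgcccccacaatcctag
How the estimate split fragments over this overlap is not given in the sources used here. Per length, MT-ATP8 exceeded MT-ATP6 by 3.59-fold in KO1, 4.83-fold in KO2 and 4.11-fold in NC, although both are translated from the same RNA. When the counts assigned to a nuclear copy of MT-ATP6 were added to it (described below), the ratio was 2.09 in KO1, 2.52 in KO2 and 2.31 in NC.

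MT-CYB, the cytochrome b of complex III, was the exception among mRNAs. MT-CYB (ENSG00000198727, 14747 to 15887) was at 5692 CPM in KO1, 4837 CPM in KO2 and 6600 CPM in NC. It was 1.16-fold (1.15 to 1.17) lower in KO1 than in NC and 1.36-fold (1.35 to 1.37) lower in KO2 than in NC, and was the only mRNA below NC in KO1 on this scale. With library totals MT-ATP8 was also below NC in KO1, and in deposited TPM MT-ATP8 and MT-ND3 were. Its share of all mitochondrial mRNA counts does not depend on how the columns were scaled, though it does depend on how counts were split between mRNAs and their nuclear copies. The share was 3.04% in KO1 (3.02 to 3.05) and 3.57% in KO2 (3.56 to 3.59), against 6.05% in NC (6.02 to 6.08). The share was 1.99-fold lower in KO1 than in NC and 1.69-fold lower in KO2 than in NC, the largest shift of any mRNA in either column. With the chromosome 1 copies of 7 mRNAs added to the denominator (an alternative chosen after seeing the data) it was 2.89% in KO1, 3.41% in KO2 and 5.76% in NC. Per length, the ratio of MT-ND4 to MT-CYB was 4.23 in KO1, 3.45 in KO2 and 1.60 in NC.

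The rest of the mRNA make-up varied less. MT-CO1 held 29.6% of mitochondrial mRNA counts in KO1, 24.6% in KO2 and 25.3% in NC. MT-ND4 held 15.5% in KO1, 14.9% in KO2 and 11.7% in NC. MT-ATP8 held 1.72% in KO1, 2.40% in KO2 and 2.52% in NC. By complex, complex I made up 38.7% in KO1, 40.4% in KO2 and 36.2% in NC, and complex IV 54.9% in KO1, 51.9% in KO2 and 53.2% in NC. Complex V made up 3.30% in KO1, 4.03% in KO2 and 4.55% in NC.

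**Figure D3:**
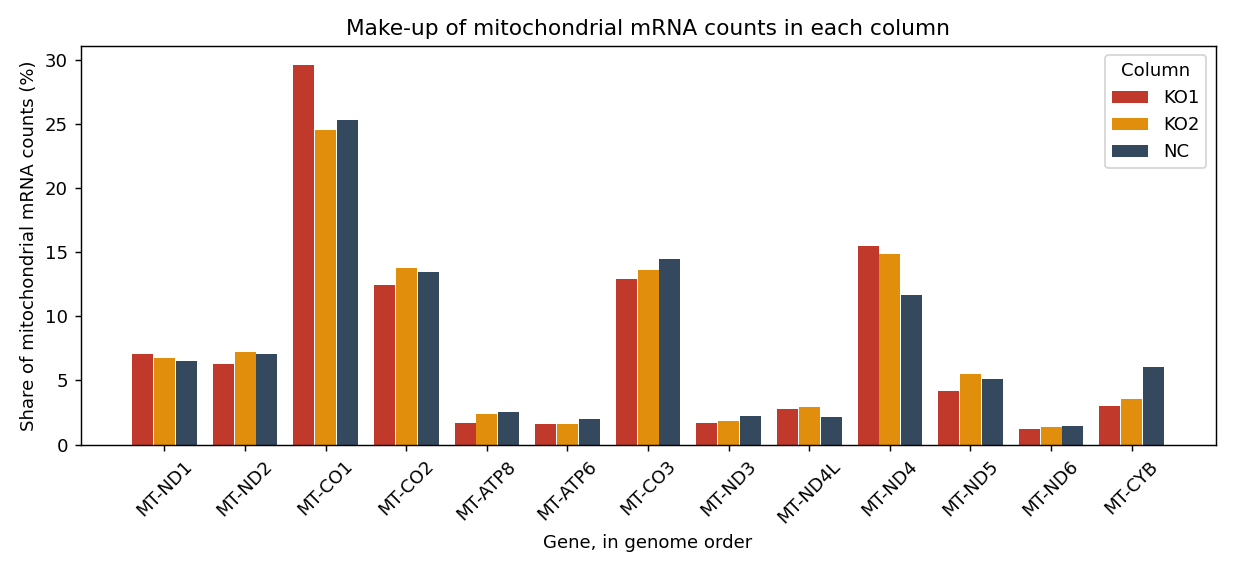
Share of mitochondrial mRNA counts (%) held by each of the 13 protein genes, in genome order, with 1 bar per column. MT-CYB is at 3.04% in KO1 and 3.57% in KO2 against 6.05% in NC, and MT-ND4 is higher in both knockout columns than in NC.

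Levels per length (TPM) set the order of the mRNAs. In KO1 the order ran MT-CO1 (44314), MT-CO2 (41987), MT-CO3 (37968), MT-ND4 (25966), MT-ND4L (21639), MT-ATP8 (19220), MT-ND1 (17117), MT-ND2 (13895), MT-ND3 (11337), MT-CYB (6144), MT-ND6 (5492), MT-ATP6 (5354) and MT-ND5 (5285), all in TPM. In KO2 MT-CO2 came first at 45201 TPM, before MT-CO3 at 39133 TPM, MT-CO1 at 35798 TPM and MT-ATP8 at 26117 TPM. In NC the same 4 genes led in the same order as in KO2, at 34267 TPM for MT-CO2, 32156 TPM for MT-CO3, 28520 TPM for MT-CO1 and 21286 TPM for MT-ATP8. MT-ND4 and MT-ND4L thus stood above MT-ATP8 in KO1 and below it in KO2 and NC. The highest mRNA exceeded the lowest by 8.38-fold in KO1, 8.36-fold in KO2 and 7.002-fold in NC. Without replicates it cannot be said which neighbours in these orders differ beyond the spread between cultures. Over the 12 plus-strand mRNAs, Pearson's r between start position and log2 fold over NC was -0.43 in KO1 and -0.30 in KO2, and Spearman's rho was -0.22 and -0.05. These describe genes of the same libraries, and MT-CYB lies at the far end.

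**Figure D4:**
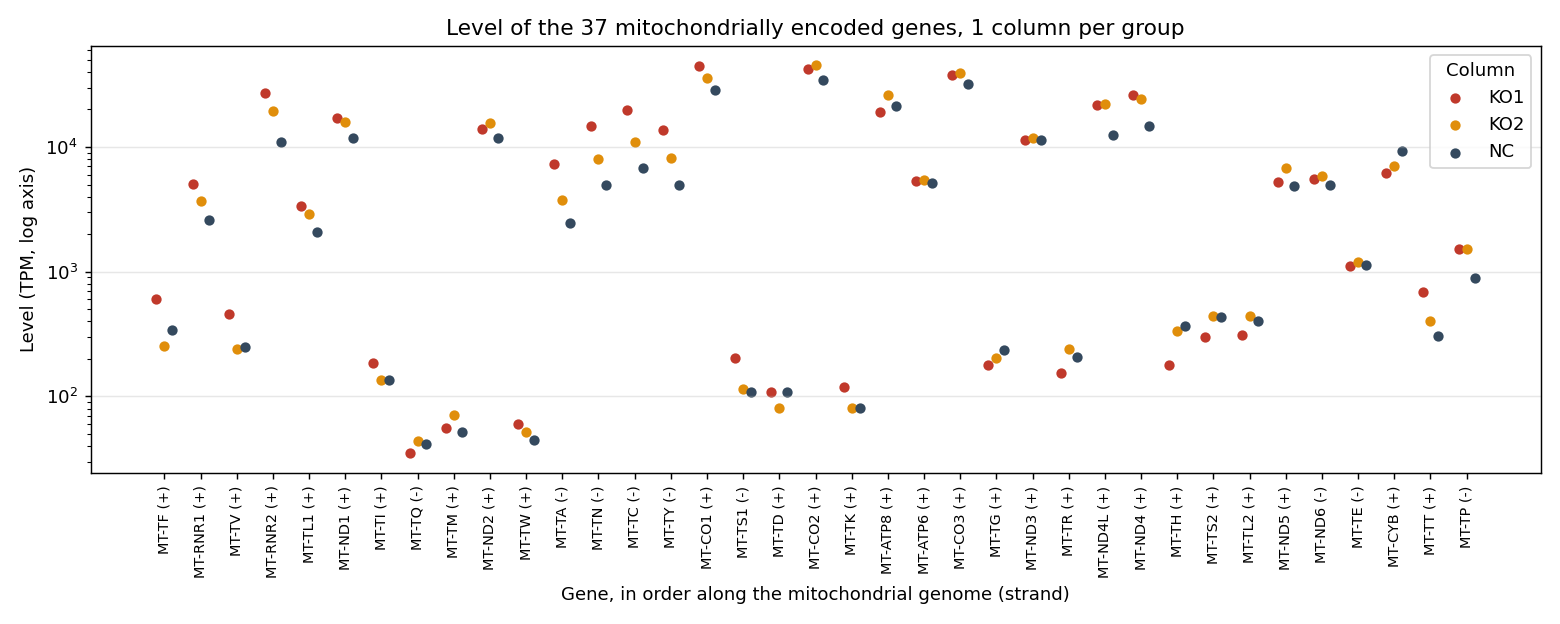
Level (TPM, log axis) of each mitochondrial gene in genome order with its strand, 1 point per column, KO1 left, KO2 middle and NC right. Most tRNAs lie far under the mRNAs, whereas MT-TA, MT-TN, MT-TC and MT-TY lie between 2466 and 19704 TPM.

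The 4 tRNA genes whose sequences are printed above held most of the tRNA signal. Together they held 84.8% of tRNA counts in KO1 (84.5 to 85.0), 77.4% in KO2 (77.0 to 77.8) and 72.1% in NC (71.6 to 72.6). Their median TPM exceeded that of the other 18 tRNA genes by 73.3-fold in KO1, 33.6-fold in KO2 and 20.5-fold in NC. MT-TC was at 1041 CPM in KO1, 428 CPM in KO2 and 275 CPM in NC, MT-TN at 855 CPM in KO1, 347 CPM in KO2 and 225 CPM in NC, MT-TY at 729 CPM in KO1, 319 CPM in KO2 and 204 CPM in NC, and MT-TA at 403 CPM in KO1, 155 CPM in KO2 and 105 CPM in NC. All 4 ran in the order KO1 above KO2 above NC. In KO1 they were 3.83-fold (3.67 to 3.99) higher than in NC for MT-TA, 3.80-fold (3.69 to 3.91) for MT-TN, 3.78-fold (3.69 to 3.88) for MT-TC and 3.58-fold (3.47 to 3.69) for MT-TY. In KO2 the folds over NC lay between 1.47 and 1.57. Their share of all counts was 0.270% in KO1, 0.134% in KO2 and 0.0846% in NC.

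These tRNAs differed from the mRNAs that flank them on the other strand. MT-ND2, which ends just before MT-TW, had a fold of 1.53 in KO1, and MT-CO1, which starts 12 bases after MT-TY, had a fold of 2.01. MT-TW itself, on the plus strand between MT-ND2 and MT-TA, was at only 3.26 CPM in KO1, 2.14 CPM in KO2 and 1.93 CPM in NC. A mature tRNA is shorter than most sequenced fragments and carries modified bases that halt copying, so total RNA libraries count tRNAs poorly. Whether the counting used strand is not given in the sources used here, so RNA of the opposite strand at these genes cannot be told apart from them.

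The other 4 minus-strand tRNAs had lower folds in KO1. MT-TP (proline), at the end of the coding region, was at 82.4 CPM in KO1, 60.9 CPM in KO2 and 37.2 CPM in NC. It was 2.21-fold (2.05 to 2.39) higher in KO1 and 1.64-fold (1.52 to 1.77) higher in KO2 than in NC. It had the highest KO2 fold of any tRNA. MT-TS1 (serine) was at 11.2 CPM in KO1, 4.68 CPM in KO2 and 4.64 CPM in NC. MT-TE (glutamate), next to MT-ND6, was at 61.8 CPM in KO1, 48.7 CPM in KO2 and 48.3 CPM in NC. MT-TQ (glutamine) had the fewest counts, 47 in KO1, 54 in KO2 and 53 in NC, and its fold in KO1 had an interval of 0.713 to 1.63. MT-TP and MT-TS1 passed the size rule in KO1, and MT-TE and MT-TQ did not.

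Of the 14 plus-strand tRNAs, 4 passed the size rule in KO1, and 3 of these flank the rRNAs. MT-TF (phenylalanine), before MT-RNR1, was at 34.3 CPM in KO1, 10.7 CPM in KO2 and 14.9 CPM in NC. MT-TV (valine), between the rRNAs, was at 25.3 CPM in KO1, 9.96 CPM in KO2 and 10.7 CPM in NC. MT-TL1 (leucine), after MT-RNR2, was at 203 CPM in KO1, 130 CPM in KO2 and 97.6 CPM in NC. Their KO1 folds of 2.30, 2.37 and 2.07 lay under the 3.24 of MT-RNR2. In KO2 MT-TF had a fold over NC of 0.715 (0.614 to 0.831) and MT-TL1 one of 1.33 (1.26 to 1.40), while the interval of MT-TV, 0.789 to 1.10, included equality. The remaining one that passed in KO1, MT-TT (threonine), directly after MT-CYB, was at 36.3 CPM in KO1, 15.7 CPM in KO2 and 12.4 CPM in NC. That is a fold of 2.93 (2.58 to 3.33) in KO1 beside an mRNA that was lower than NC.

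The cluster of MT-TH, MT-TS2 and MT-TL2 (histidine, serine and leucine), between MT-ND4 and MT-ND5, was not higher in KO1 although both flanking mRNAs were. MT-TH was at 9.83 CPM in KO1, 13.7 CPM in KO2 and 15.8 CPM in NC, or 1.61-fold (1.37 to 1.89) lower in KO1 than in NC, the lowest fold of any member in KO1. MT-TS2 was at 14.0 CPM in KO1, 15.3 CPM in KO2 and 15.9 CPM in NC. MT-TL2 was at 17.7 CPM in KO1, 18.8 CPM in KO2 and 17.6 CPM in NC. The counting intervals of MT-TS2 and MT-TL2 included equality in both columns. MT-TG (glycine) had 223 counts in KO1, 230 in KO2 and 280 in NC, and MT-TR (arginine) was at 8.04 CPM in KO1, 9.21 CPM in KO2 and 8.32 CPM in NC.

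The last 5 plus-strand tRNAs lay under 11 CPM in all columns and did not pass the size rule. MT-TI (isoleucine) was at 10.3 CPM in KO1, 5.57 CPM in KO2 and 5.86 CPM in NC. MT-TK (lysine) was at 6.65 CPM in KO1, 3.36 CPM in KO2 and 3.50 CPM in NC, and MT-TD (aspartate) at 5.96 CPM in KO1, 3.25 CPM in KO2 and 4.61 CPM in NC. MT-TM (methionine) was at 3.09 CPM in KO1, 2.89 CPM in KO2 and 2.21 CPM in NC, and MT-TW (tryptophan) has been given above. Counts of the 5 genes were between 54 and 236, so the intervals of their folds are wide, and that of MT-TM in KO1 was 0.977 to 1.99.

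KO2 against KO1 asks how the knockout columns, which share a labelled genotype, differ. Of 37 members 8 passed as lower in KO2, or 21.6%, where 11.2% of measured genes did so, and 0 passed as higher, where 14.9% did. With library totals 5 members (13.5%) passed as lower, where 7.27% of genes did, and with deposited TPM only MT-TF did, or 2.7% of members, where 4.4% of genes did. All 8 that passed with TMM were tRNAs: MT-TF, MT-TV, MT-TA, MT-TN, MT-TC, MT-TY, MT-TS1 and MT-TT. MT-TF differed most, being 3.21-fold (2.81 to 3.68) lower in KO2 than in KO1, and MT-TA was 2.60-fold (2.51 to 2.69) lower. MT-RNR2 was 1.88-fold lower and MT-CO1 1.67-fold lower in KO2 than in KO1, both short of the rule. MT-ATP8 was level, with a fold of 1.01 (0.998 to 1.02). The median log2 fold of KO2 over KO1 was -0.43 over the 37 members and -0.38 over the mRNAs, against 0.04 over all measured genes. With deposited TPM the median of the mRNAs was 0.06 while that of all genes was 0.39, so the mRNA median lay below the median of all genes on both scales while its sign turned. In CPM the columns ran KO1 above KO2 above NC for 24 of 37 members and 10 of 13 mRNAs, against 14 members and 3 mRNAs in deposited TPM. This tally was chosen after seeing the data, and the share of all genes with that order is not given here.

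Nuclear DNA carries old copies of mitochondrial genes, and those on chromosome 1 limit the values of at least 7 mRNAs. A stretch of chromosome 1 between 629062 and 634922 (hg38, plus strand) holds copies of MT-ND1, MT-ND2, MT-CO1, MT-CO2, MT-ATP8, MT-ATP6 and MT-CO3 in the same order. The bases between these copies were not aligned, including those from 630683 to 631074, between the copies of MT-ND2 and MT-CO1. Whether MT-TA, MT-TN, MT-TC, MT-TY or other tRNA genes share fragments with this stretch was thus not tested. Aligned to GENCODE transcripts, they were 97.6% to 98.7% identical to the mitochondrial genes over the aligned bases. MTND1P23 and MTCO3P12 are partial copies. MTND1P23 aligned over 365 bases of MT-ND1, which has 956, and MTCO3P12 over 547 bases of MT-CO3, which has 784. MTATP6P1 (chromosome 1, 633696 to 634376) differed from MT-ATP6 at 10 of 681 bases, with a longest shared run of 141 bases. An 85-base window with 4 of those differences is shown, with the differing bases in capitals, because the split of counts between gene and copy rests on such bases.
MT-ATP6, MT:8647-8731: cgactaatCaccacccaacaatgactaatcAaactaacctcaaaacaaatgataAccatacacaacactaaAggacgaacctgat
MTATP6P1, chr1:633816-633900: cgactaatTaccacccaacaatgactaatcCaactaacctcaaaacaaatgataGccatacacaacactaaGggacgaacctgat
Counted from 1 at the first base of MT-ATP6, these are C129T, A151C, A175G and A192G, the mitochondrial base first.

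The copies received very unequal shares of the counts. MTATP6P1 had 48635 counts in KO1, 57087 in KO2 and 48255 in NC, which was 41.7% of its sum with MT-ATP6 in KO1 (41.4 to 42.0), 47.9% in KO2 (47.6 to 48.2) and 43.8% in NC (43.5 to 44.1). MTND2P28 had 12.8% of its sum with MT-ND2 in KO1, 13.2% in KO2 and 13.4% in NC. MTCO1P12 had 8.76% of its sum with MT-CO1 in KO1, 7.79% in KO2 and 7.98% in NC. By contrast MTCO2P12, 98.2% identical to MT-CO2, had 0.172% in KO1, 0.134% in KO2 and 0.137% in NC, and MTATP8P1, which overlaps MTATP6P1, had 7 counts in KO1, 11 in KO2 and 8 in NC. The counts of these pairs are estimates that depend on how fragments shared by gene and copy were assigned, so each gene and its copy are uncertain alone. Summed with its copy, MT-ATP6 had a fold over NC of 1.29 in KO1 and 1.08 in KO2. Alone it had 1.34 in KO1 and an interval of 0.991 to 1.01 in KO2. For the other 6 genes the summed folds lay within 0.02 of those of the gene alone. The same 15 members passed in KO1 with or without the copies added, and 0 passed in KO2.

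**Figure D5:**
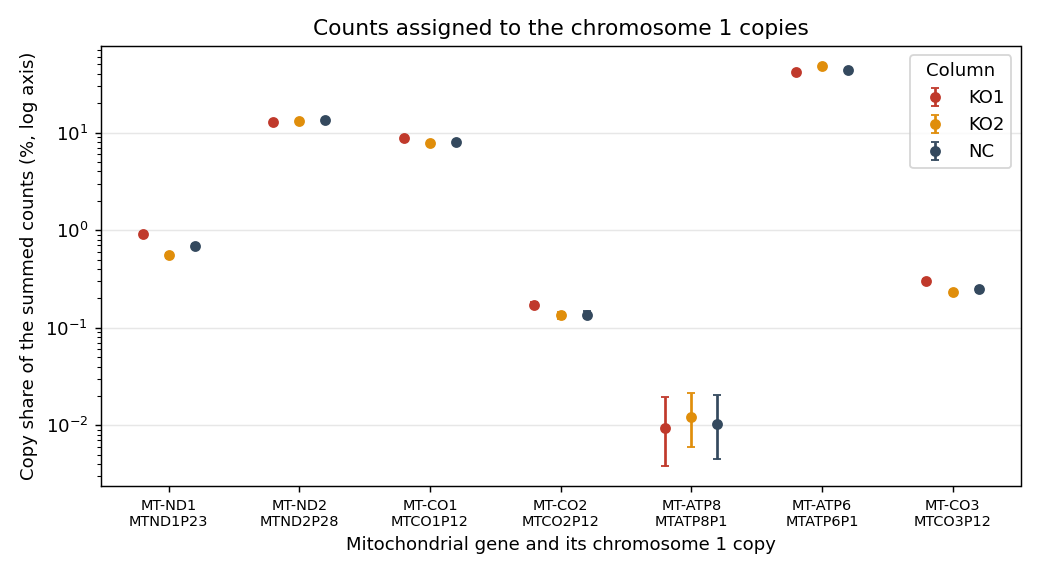
Share of the summed counts of each mitochondrial gene and its chromosome 1 copy that was assigned to the copy (%, log axis), per column, with exact 95% counting intervals. MTATP6P1 took over 40% in each column and MTATP8P1 about 0.01%.

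Over all 417 nuclear copies in the table, 0.846% of counts lay on copies in KO1, 0.695% in KO2 and 0.569% in NC. Only 13 copies reached a mean of 1 CPM, of which 8 passed as higher in KO1, where 15.4% of measured genes did, and 1 in KO2, where 11% did. How fragments shared with mitochondrial genes were assigned is not known for these copies either. Their tally is therefore not independent of the members. Outside chromosome 1, MTND4P12 was at 40.4 CPM in KO1, 21.6 CPM in KO2 and 13.1 CPM in NC, in the same order as MT-ND4. MTRNR2L12, a copy of part of MT-RNR2, was at 16.8 CPM in KO1, 9.03 CPM in KO2 and 4.89 CPM in NC, in the same order as MT-RNR2. On chromosome 1, MTND1P23 was at 123 CPM in KO1, 50.8 CPM in KO2 and 49.6 CPM in NC, MTCO3P12 at 73.4 CPM in KO1, 42.6 CPM in KO2 and 39.5 CPM in NC, and MTCO2P12 at 40.3 CPM in KO1, 24.9 CPM in KO2 and 20.1 CPM in NC.

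A list of 71 nuclear genes that maintain, transcribe, process or translate mitochondrial RNA had medians close to 0. All 71 were measured. In KO1 6 were higher, 3 lower and 62 neither, with a median log2 fold of 0.06, against 15.4% higher and 17.4% lower over all measured genes. In KO2 1 was higher and 0 lower, with a median of -0.07, against 11% higher and 9.98% lower over all measured genes. By edgeR 0 of the 71 changed. So few genes of the whole table were called by edgeR that this says little about the list. MTIF3, an initiation factor of mitochondrial translation, was the only one of the 71 past the size rule in both knockout columns. It had 414 counts in KO1, 509 in KO2 and 245 in NC, or folds over NC of 2.06 in KO1 and 2.08 in KO2. The share of all measured genes past the rule in both columns is not given here.

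The transcription machinery itself showed no common direction. POLRMT, the mitochondrial RNA polymerase, was at 31.5 CPM in KO1, 35.6 CPM in KO2 and 65.4 CPM in NC, or 2.07-fold (1.90 to 2.26) lower in KO1 and 1.84-fold (1.70 to 1.99) lower in KO2 than in NC. TFB2M, which helps the polymerase open promoters, was at 40.3 CPM in KO1, 19.9 CPM in KO2 and 14.6 CPM in NC, or 2.76-fold (2.45 to 3.11) higher in KO1 than in NC. TFAM, which packs the DNA and recruits the polymerase, was at 51.9 CPM in KO1, 57.0 CPM in KO2 and 60.0 CPM in NC. POLRMT was thus lower in the columns with more mitochondrial RNA, and TFB2M followed the order of that RNA. Whether either gene bears on that RNA was not tested. TFAM lay close to NC, with folds of 0.866 (0.803 to 0.933) in KO1 and 0.951 (0.887 to 1.02) in KO2. In deposited TPM TFAM was at 12.95 in KO1, 20.95 in KO2 and 19.75 in NC.

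Of factors that stabilise the mRNAs, LRPPRC was at 237 CPM in KO1, 207 CPM in KO2 and 145 CPM in NC, in the order of the mitochondrial share. In deposited TPM LRPPRC was at 52.8 in KO1, 61.9 in KO2 and 43.1 in NC, so that order did not hold. Its partner SLIRP was at 78.9 CPM in KO1, 44.9 CPM in KO2 and 47.1 CPM in NC. Others past the rule in KO1 were MTERF1, TWNK, PTCD2 and MTIF2 on the higher side and PRORP and TRUB2 on the lower side. PRORP, the nuclease subunit that cuts the 5′ ends of mitochondrial tRNAs, was at 5.70 CPM in KO1, 19.2 CPM in KO2 and 13.8 CPM in NC. The other subunits of that enzyme went the other way in KO1, short of the rule. TRMT10C was at 55.1 CPM in KO1, 37.7 CPM in KO2 and 27.8 CPM in NC. HSD17B10 was at 97.3 CPM in KO1, 51.3 CPM in KO2 and 57.4 CPM in NC. ELAC2, which cuts the 3′ ends, was at 96.7 CPM in KO1, 103 CPM in KO2 and 118 CPM in NC. Which of these RNA levels bear on the mitochondrial ones was not tested.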

How the data were processed

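Per the labels' protocols, RNA was extracted with Trizol and made into libraries with a kit for stranded total RNA. CASAVA, Bowtie2, featureCounts and the hg38 build are named in the submitters' processing notes, with neither versions nor roles. Each group has 1 column each of counts, TPM and FPKM per transcript, per the file headers. Which tool made them is not given in the sources used here. The deposited counts were read as estimated counts rounded up: of transcripts with small counts, 98.6% in KO1, 98.5% in KO2 and 98.5% in NC lay 0 to 1 above the count implied by FPKM, within 0.05. The deposited TPM sum to the same total in each column. The deposited FPKM are a constant multiple of TPM, and were used for these checks only.

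Transcript counts were summed over 58174 gene IDs. CPM used TMM factors over genes kept by filterByExpr (edgeR 4.0.16, R 4.3.3). Log2 folds used a prior count of 2, and intervals were exact binomial (Clopper-Pearson). The edgeR test used robust dispersion, and DESeq2 1.42.0 was the alternative tool. Scripts were tested on simulated data. Named were all members, all cell line markers, copies with a mean of at least 10 CPM, and nuclear factors past the size rule with 1 sign in KO1 and KO2, plus TFAM, POLRMT, TFB2M, LRPPRC and SLIRP. MTATP8P1, ELAC2, PRORP, TRMT10C, HSD17B10, TRUB2, MTERF1, TWNK, PTCD2 and MTIF2 fall outside that rule and were named after their values were seen. Members and lists were chosen with earlier results of these data known. Sequences are from GENCODE release 29, whose lengths matched all 37 members. Copies were aligned with Biopython 1.88.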

Additional observations from a re-analysis of the deposited data

How the results depend on the processing

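No paired analysis was possible because the columns carry no replicate number and each group has 1 column. Leaving out a replicate was likewise not possible: without any column the edgeR fit has no residual degrees of freedom.

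Under DESeq2 size factors, upper quartile factors, TMM on nuclear genes alone, no filter, a prior count of 0.5 and the copies summed (chosen after seeing the data), the counts of members past the size rule stayed within 1.5 times those reported. With library totals 9 members were higher in KO1 against NC and 5 lower in KO2 against KO1. With deposited TPM these counts were 6 and 1, and 1 member (MT-TH) was lower in KO1 against NC. That was 2.7% of members, where 21.7% of genes were lower. At a fold threshold of 1.5, 7 members (18.9%) were higher in KO2 against NC, where 22.1% of genes were. They were MT-RNR2, MT-TN, MT-TC, MT-TY, MT-ND4L, MT-ND4 and MT-TP. In KO1 against NC 22 members (59.5%) were higher, where 26.3% of genes were, and 1 (2.7%) was lower, where 28% were. In KO2 against KO1 16 members (43.2%) were lower, where 21.9% of genes were. The median log2 fold of the 13 mRNAs in KO2 against KO1 reversed to 0.0551 with deposited TPM, where the median of all genes was 0.39, and the cause was not tested.

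The mitochondrial share was 35.3% of deposited TPM in KO1, 32.4% in KO2 and 24.3% in NC. Without the rRNA genes it was 17.6% in KO1, 15% in KO2 and 11.7% in NC. Without rRNA, tRNA and copies in the denominator the mRNA share was 17.5% in KO1, 14.96% in KO2 and 11.6% in NC. With the copies added it was 21.3% in KO1, 17.6% in KO2 and 13.4% in NC. The order of the columns was the same in each.

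Of all genes, edgeR called 10 that rose and 17 that fell as reported. Without a filter 257 rose and 236 fell, with DESeq2 size factors 6 and 9, with TMM on nuclear genes 6 and 8, by DESeq2 189 and 109, and without robust dispersion (chosen after seeing the data) 19 and 29. No setting called a member. The lowest tRNAs, with counts near 50, are limited by depth.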
